A study of Rattus norvegicus with 50 samples.

Results

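The comparison set the mammary transcriptome of parous rats given a mixture of 3 chemicals against that of parous rats given the vehicle alone. Its members were chosen by their labels: 5 rats titled MIX_par (MIX_par_337 to MIX_par_341) and 5 titled OIL_par (OIL_par_440, OIL_par_441, OIL_par_442, OIL_par_444 and OIL_par_446), which are 10 of the 50 rats of the series, with 1 array per rat. The MIX_par rats, called MIX here, received diethyl phthalate (DEP), methyl paraben (MPB) and triclosan (TCS) together, and the OIL_par rats, called OIL, received olive oil. All were female Sprague-Dawley rats treated from postnatal day (PND) 1 to PND 180, first through their dams' milk and, once weaned at PND 28, by gavage, mated at PND 97 and sacrificed at PND 181, after their pups had been weaned. The route, weaning and mating days are described for DEP and the vehicle, and the labels of the MIX rats add the treatment period and the day of sacrifice. The doses of the 3 chemicals in the mixture are not given in the sources used here. The methods state that no siblings shared a treatment group, that animals were killed on 1 day and at random stages of the estrous cycle, and that RNA came from whole pulverized caudal mammary glands. RNA was extracted with a Promega kit from 3 MIX and 3 OIL rats and with a Zymo kit from 2 MIX and 2 OIL rats, so the kit was balanced over the groups.

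The mammary gland of a parous rat holds a ductal and alveolar epithelium in a bed of adipocytes, fibroblasts and vessels, with macrophages, mast cells and an inguinal lymph node in or near the fat pad. Its hormone-sensing luminal cells carry receptors for estrogen, progesterone and prolactin and pass the hormonal signal on to their neighbours through secreted factors such as amphiregulin. DEP is a solvent of perfumes and cosmetics, methyl paraben is a preservative, and triclosan is an antibacterial agent of soaps and toothpaste. The comparison asks whether lifelong exposure to all 3 at once left a mark on gene expression in the adult gland after a pregnancy. The deposited value table held log2 signals of 36685 probesets, of which 18511 named a single gene, giving 18166 genes. Signals of the labelled tissue were present in both groups. The milk protein list (13 genes) averaged 11.92 ± 0.25 in MIX rats and 11.79 ± 0.21 in OIL rats on the log2 scale (SD, n = 5 each). The epithelium list (19 genes) averaged 9.70 ± 0.31 and 9.72 ± 0.20.

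No gene passed the threshold of the study's methods, a Benjamini-Hochberg adjusted p under 0.25 with a change of at least 1.5-fold. Among the 7387 genes that passed the filters on intensity and variance, 0 (0%) were called in the limma fit with the kit as a term, and the smallest adjusted p was 0.974. An unadjusted p under 0.05 was reached by 215 genes (2.91%), 116 of them lower and 99 higher in MIX rats. This share was below the 0.05 that chance alone gives at this threshold. The count of 215 became 625 without OIL_par_441, 468 without OIL_par_446 and 409 without MIX_par_341, against 78 without OIL_par_442 and 113 without MIX_par_337. No gene was called in any of those fits. The kit itself differed in 9317 of 14774 genes past the intensity filter (63.1%, adjusted p under 0.05, limma), with a median difference of 0.57 on the log2 scale, so values of single rats are given below with the fitted kit term removed.

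The absence of calls came with a stated precision. The standard error of the log2 difference had a median of 0.16 over the genes tested, and its 5th and 95th percentiles were 0.11 and 0.37. For 5259 genes (71.2%) the 95% interval of the difference lay wholly within 1.5-fold in either direction, and for 6701 genes (90.7%) it lay within 2-fold. For the remaining genes the interval reached past these limits, either because the spread between rats was wide or because the difference itself was large. The median log2 difference over all genes tested was -0.0032, with 5th and 95th percentiles of -0.47 and 0.31. A difference of 1.5-fold or more was seen in 310 genes, 225 lower and 85 higher in MIX rats, none of them past the adjusted threshold. The spread between rats was alike in both groups, with a median SD per gene of 0.22 in MIX rats and 0.23 in OIL rats, and the SD was larger in MIX rats for 46.4% of genes.

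**Figure D1:**
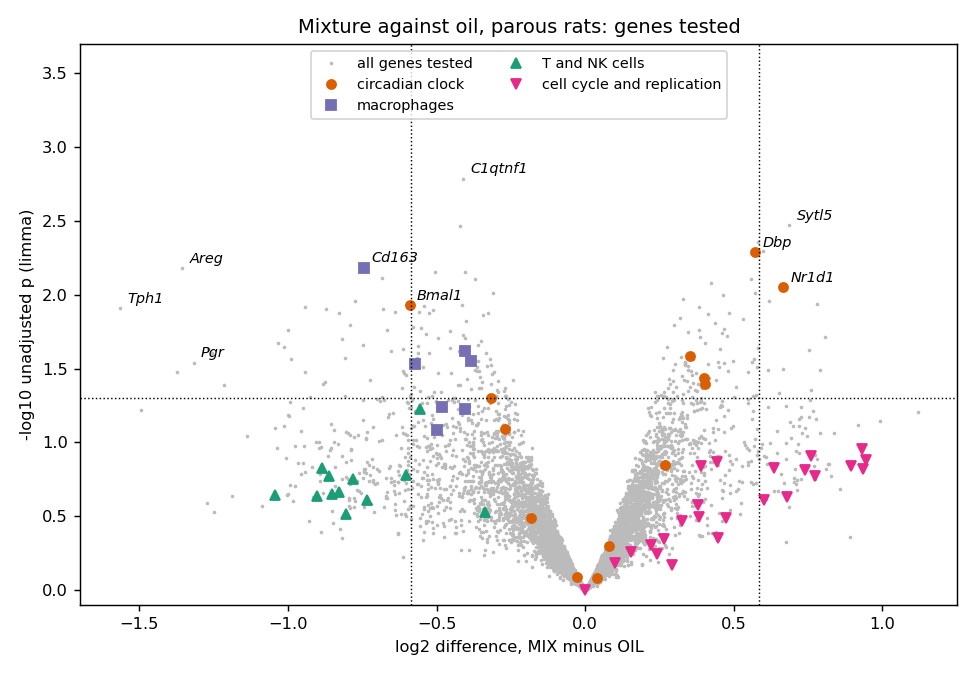
Each point is 1 of the 7387 genes tested; the horizontal axis is the log2 difference, MIX minus OIL, and the vertical axis is -log10 of the unadjusted p of the limma fit. Dotted lines mark an unadjusted p of 0.05 and a 1.5-fold change; coloured points are members of 4 gene lists, with macrophage genes to the left and clock genes on both sides.

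The genes with the smallest p are given as values, since none was called. The smallest belonged to C1qtnf1, which encodes a secreted protein of the C1q and TNF related family. Its log2 signal was 8.80, 8.74, 8.81, 8.70 and 8.83 in MIX_par_337 to MIX_par_341, against 9.24, 9.18, 9.22, 9.22 and 9.06 in OIL_par_440, OIL_par_441, OIL_par_442, OIL_par_444 and OIL_par_446, the order used for all values by rat. The groups did not overlap, and the gap between them was larger than the range within either. The log2 difference was -0.41 ± 0.10 (SE), with a 95% interval from -0.63 to -0.19 and an unadjusted p of 0.0016 (limma). Groups that did not overlap were seen in 31 of the 7387 genes (0.42%), 12 lower and 19 higher in MIX rats. By chance alone a gene has a probability of 0.00794 of such a separation (exact test of 5 against 5). The share seen was below that, so a lack of overlap in a single gene is no evidence of a difference.

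Ramp3, which encodes a receptor activity-modifying protein that turns the calcitonin receptor-like receptor into an adrenomedullin receptor, also had no overlap, at 7.67 to 7.83 in MIX rats and 8.03 to 8.40 in OIL rats. Cd163, the scavenger receptor for haptoglobin-bound hemoglobin on resident macrophages, was 8.04, 8.47, 8.70, 8.88 and 8.55 in MIX rats, against 8.91, 9.14, 9.95, 9.0 and 9.34 in OIL rats. Its highest MIX rat stood 0.03 below its lowest OIL rat, so the groups were apart only by a narrow margin. The log2 difference was -0.74 (95% interval from -1.23 to -0.26). Il1r2, a decoy receptor for interleukin-1, was lower by -0.50 on the log2 scale, Aldh3a1, an aldehyde dehydrogenase, by -0.68, and Ifit3, an interferon-induced gene, by -0.37, with unadjusted p-values between 0.0070 and 0.0078. Nuak2, a kinase of the AMPK family, differed by -0.40 and the probeset named for Mir142, a microRNA of blood cells, by -0.50. Gem, a small GTPase, differed by -0.31.

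Among genes with higher values in MIX rats, Sytl5, a synaptotagmin-like Rab effector of vesicle transport, was 7.48, 7.35, 7.78, 7.62 and 7.42 in MIX rats, against 6.7, 7.24, 6.73, 6.35 and 7.20 in OIL rats. All 5 MIX rats lay above all 5 OIL rats, and the OIL rats spread over a wider range. The log2 difference was 0.69 ± 0.18 (SE), a ratio of 1.61. Sema3a, a secreted semaphorin that guides axons and vessels, was higher by 0.60 on the log2 scale, and Hsd11b2, which inactivates corticosterone, by 0.56. Nav2, Kctd12b and Prkci had differences of 0.46, 0.42 and 0.33, and Gpd1, the glycerol-3-phosphate dehydrogenase of adipocytes, one of 0.57. Each of these 7 genes had an adjusted p of 0.974 in the limma fit.

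**Figure D2:**
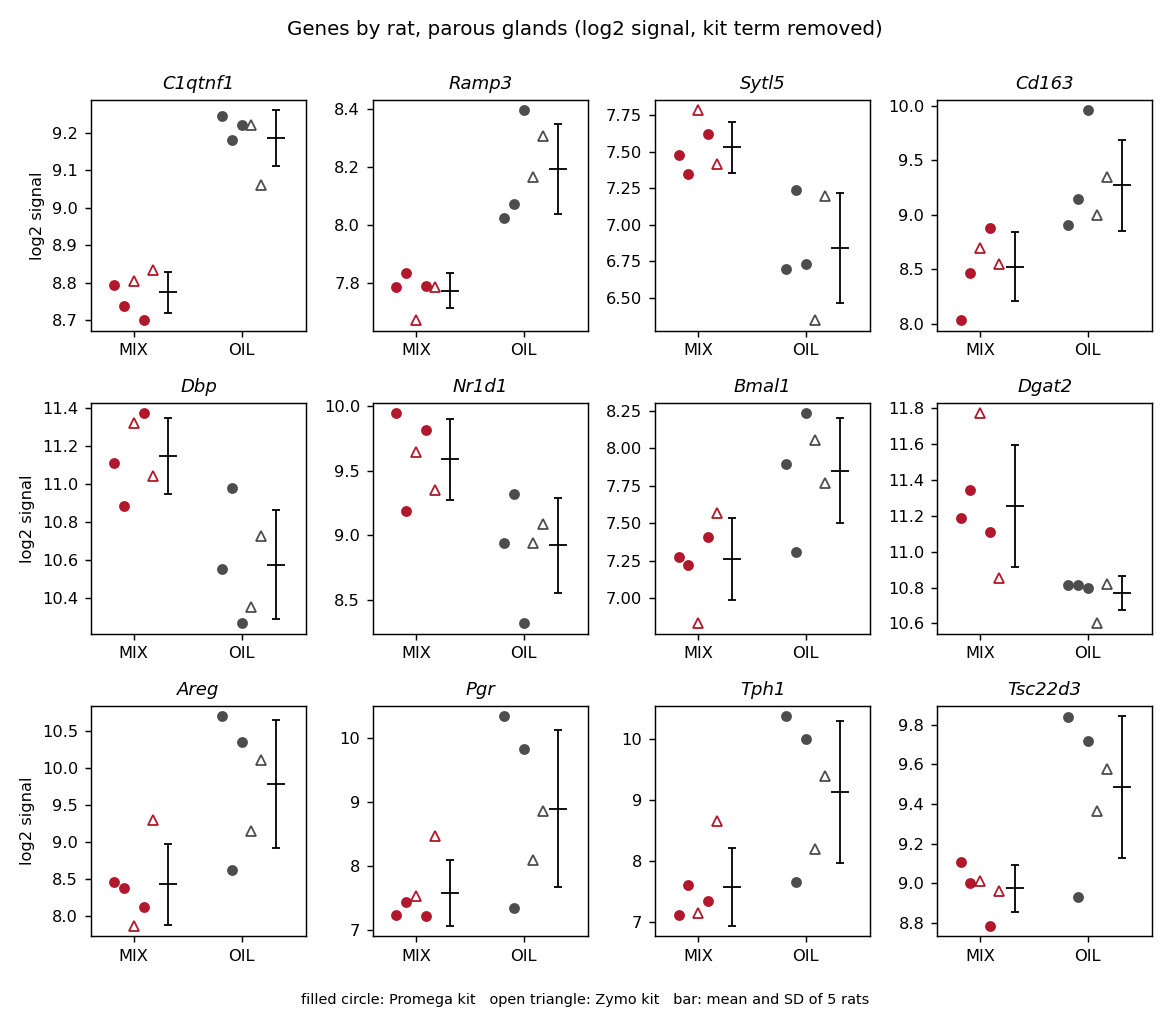
Log2 signal of 12 genes in each rat, kit term removed, with MIX rats left of OIL rats; circles are Promega extracts, triangles Zymo extracts, and bars the mean and SD of 5 rats. MIX and OIL do not overlap for C1qtnf1, Ramp3, Sytl5, Cd163 and Dgat2, while for Areg, Pgr and Tph1 the OIL rats spread over 2 or more log2 units.

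The circadian clock list held 15 measured genes, 13 of them tested. The clock is a feedback loop in which BMAL1 (Bmal1) and CLOCK, or its relative NPAS2, bind E-boxes and switch on the Per and Cry genes and Nr1d1, whose products then hold BMAL1 activity or the Bmal1 gene in check, and Dbp and Tef are output genes driven in the same phase as Nr1d1. In MIX rats 5 of the 13 tested genes had an unadjusted p under 0.05 with a higher level (Dbp, Nr1d1, Tef, Per2 and Per3) and 2 with a lower level (Bmal1 and Per1), 7 of 13 where the share over all genes tested was 2.91%. None of the 13 was called, and Per1 was only just under that limit, at an unadjusted p of 0.04996 (limma). Clock genes other than Dbp, Nr1d1 and Bmal1 were named after their values were seen. The median of the 15 was 0.082, against -0.0032 for all genes tested, since the members went both ways, and it was 0.21 without MIX_par_341 and 0.042 without MIX_par_339.

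Dbp was 11.11, 10.89, 11.32, 11.37 and 11.04 in MIX rats, against 10.55, 10.98, 10.27, 10.35 and 10.73 in OIL rats. A single OIL rat, OIL_par_441, reached into the range of the MIX rats. The log2 difference was 0.57 ± 0.16 (SE, 95% interval from 0.21 to 0.93), a ratio of 1.49, with an unadjusted p of 0.0051 (limma). Nr1d1, which encodes the repressor REV-ERBα, was 9.94, 9.19, 9.64, 9.81 and 9.35 in MIX rats, against 8.94, 9.32, 8.32, 8.94 and 9.08 in OIL rats, a log2 difference of 0.67 ± 0.21. Again OIL_par_441 was the highest of its group and lay above the lowest MIX rat. Bmal1 ran the opposite way, at 7.27, 7.22, 6.83, 7.41 and 7.57 in MIX rats, against 7.89, 7.31, 8.23, 8.06 and 7.77 in OIL rats, a log2 difference of -0.59 ± 0.19. OIL_par_441 was the lowest of its group here.

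The differences of the 3 genes had the same sign within each kit: 0.52 (Promega) and 0.64 (Zymo) for Dbp, 0.79 and 0.48 for Nr1d1, and -0.51 and -0.71 for Bmal1. Tef differed by 0.35, Per2 by 0.40 and Per3 by 0.40 on the log2 scale, while Per1 differed by -0.32 and so did not go with Per2 and Per3. Npas2 differed by -0.27, and Clock (0.08), Cry2 (0.04) and Bhlhe40 (-0.03) lay close to 0. The hour at which each rat was killed is not given in the sources used here.

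Promoter sequences of the clock genes are shown because the loop acts through short motifs near the start sites. RefSeq (GRCr8) held a window ending shortly after the start for 14 of the 15 measured genes, and it was searched on both strands for the E-box CACGTG and for AGGTCA, a half-site bound by REV-ERB and ROR receptors. The 2 motifs do not overlap in their letters. The E-box was found in 5 of the 14 genes (Nr1d1, Tef, Ciart, Bhlhe40 and Bhlhe41), where 6.42% of all 33469 windows hold it, and AGGTCA in 1 of the 14 (Bmal1), where 16.2% of all windows hold it. A gene counted if any of its windows held the motif, and Nr1d1 and Clock had 2 windows each. The counts per gene and the shares per window are therefore not in the same unit. Capitals in the windows below mark these matches, each 1 run from 5′ to 3′, for Nr1d1 (1 of its 2 windows, chr10:84229405-84229704, minus strand), Tef (chr7:115206577-115206876, plus strand) and Bmal1 (chr1:176766078-176766377, plus strand).
Nr1d1: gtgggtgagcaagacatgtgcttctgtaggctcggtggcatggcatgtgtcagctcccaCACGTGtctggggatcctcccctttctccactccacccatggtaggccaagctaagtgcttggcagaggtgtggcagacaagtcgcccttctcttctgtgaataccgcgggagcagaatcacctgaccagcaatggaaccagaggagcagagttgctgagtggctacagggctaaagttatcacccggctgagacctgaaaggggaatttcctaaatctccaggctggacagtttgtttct
Tef: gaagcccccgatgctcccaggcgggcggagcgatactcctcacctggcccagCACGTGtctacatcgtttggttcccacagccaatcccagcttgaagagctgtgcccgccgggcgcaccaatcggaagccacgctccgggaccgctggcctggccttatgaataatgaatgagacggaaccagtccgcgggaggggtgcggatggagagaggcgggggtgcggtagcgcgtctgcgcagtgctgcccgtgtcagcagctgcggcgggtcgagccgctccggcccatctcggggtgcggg
Bmal1: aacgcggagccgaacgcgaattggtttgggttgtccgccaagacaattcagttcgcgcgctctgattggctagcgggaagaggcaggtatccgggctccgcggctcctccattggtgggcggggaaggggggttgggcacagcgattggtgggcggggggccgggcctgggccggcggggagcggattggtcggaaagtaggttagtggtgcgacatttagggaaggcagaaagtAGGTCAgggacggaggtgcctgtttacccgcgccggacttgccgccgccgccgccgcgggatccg
Among the genes with the E-box, Nr1d1, Tef, Ciart and Bhlhe41 had higher levels in MIX rats, while Bhlhe40 differed by -0.03. The log2 difference was 0.27 for Bhlhe41. It was 0.33 for Ciart, which was outside the filters, in a fit of the 25 parous rats. Dbp, Per2 and Per3, whose windows hold neither motif, also had higher levels. A match of these letters is a description of the window and not of binding.

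The same clock genes can be set beside the single chemicals, given over the same days to 5 parous rats each and compared with the same 5 OIL rats in a fit of all 25 parous rats. These comparisons share their controls, so a low or high set of OIL rats enters all of them alike. Nr1d1 differed from OIL by 0.67 in MIX rats, 1.02 in DEP rats, 1.31 in MPB rats and 0.73 in TCS rats on the log2 scale. It was called in DEP rats (adjusted p of 0.031) and in MPB rats (adjusted p of 0.118) and not in MIX or TCS rats (limma). Dbp differed from OIL by 0.57 in MIX rats, 0.55 in DEP rats, 0.75 in MPB rats and 0.61 in TCS rats, and Bmal1 by -0.59, -0.22, -0.44 and -0.48 in the same order. Per1 had no common direction, with -0.32 in MIX rats against 0.24 in DEP rats, 0.46 in MPB rats and 0.32 in TCS rats. For MIX against OIL rats in this fit, the unadjusted p was 0.062 for Per1, 0.071 for Tef and 0.072 for Per2 (limma). It stayed under 0.05 for Dbp, Nr1d1, Bmal1 and Per3.

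**Figure D3:**
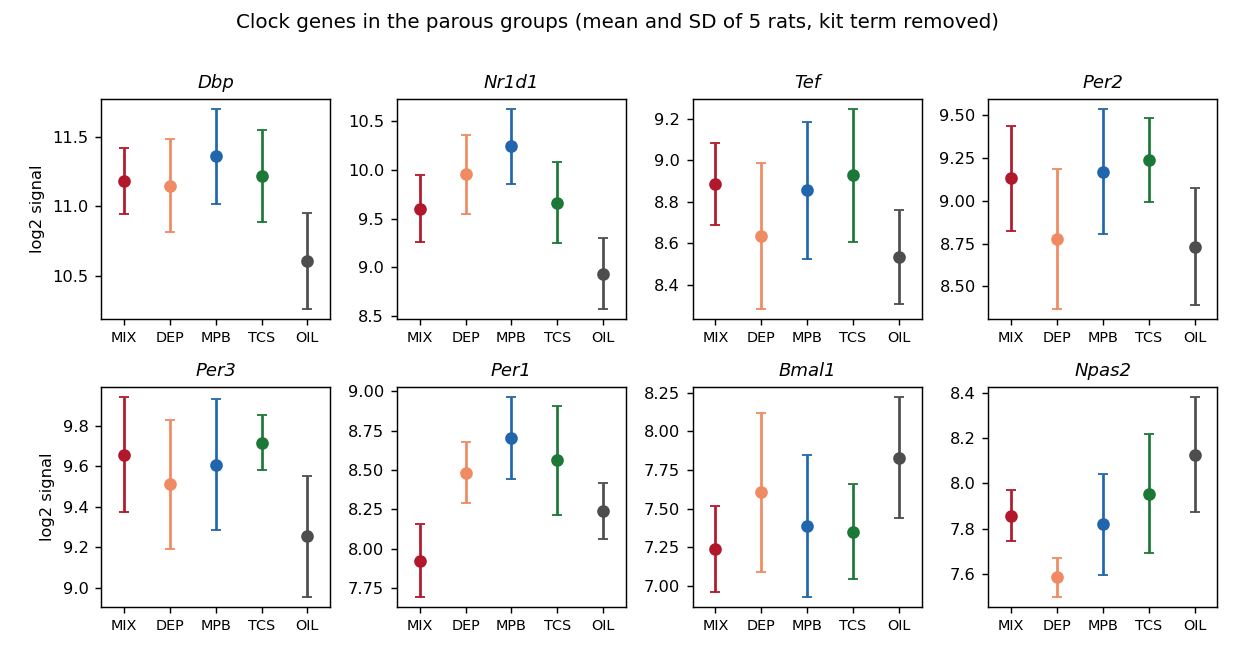
Mean and SD (n = 5 rats) of the log2 signal of 8 clock genes in the 5 parous groups, kit term removed over the 25 rats, on separate vertical axes. The OIL mean is the lowest for Dbp, Nr1d1, Tef, Per2 and Per3 and the highest for Bmal1 and Npas2, and the MIX mean is the lowest for Per1.

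Per1 also belongs to the glucocorticoid-responsive genes, with Tsc22d3 (the glucocorticoid-induced leucine zipper), Zbtb16, Fkbp5, Sgk1 and Dusp1. Of the 10 genes of this list 8 were lower and 2 higher in MIX rats, with a median log2 difference of -0.30. Among the 6 tested, 3 had an unadjusted p under 0.05 with a lower level (Tsc22d3, Zbtb16 and Per1) and 1 with a higher level (Hsd11b2). Tsc22d3 was 9.11, 9.0, 9.01, 8.78 and 8.96 in MIX rats, against 9.84, 8.93, 9.72, 9.37 and 9.58 in OIL rats, a log2 difference of -0.51 ± 0.17. The MIX rats were closely grouped, and OIL_par_441 alone lay among them. Zbtb16, which encodes the zinc finger protein PLZF, differed by -0.81 with a 95% interval from -1.50 to -0.11. Hsd11b2 was 7.90, 8.11, 8.08, 7.77 and 7.52 in MIX rats, against 6.97, 7.71, 7.11, 7.44 and 7.35 in OIL rats, a log2 difference of 0.56 ± 0.17. Nr3c1, the glucocorticoid receptor itself, differed by 0.16.

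Areg and Pgr, of the hormone-sensing luminal list, had differences of over 1 log2 unit. Areg, which encodes amphiregulin, the EGF receptor ligand that relays estrogen signals in the duct, was 8.46, 8.38, 7.87, 8.12 and 9.30 in MIX rats, against 10.69, 8.62, 10.35, 9.15 and 10.10 in OIL rats. MIX_par_341 lay above 2 of the 5 OIL rats, and the other 4 MIX rats lay below all OIL rats. The mean was 8.43 ± 0.54 in MIX rats and 9.78 ± 0.87 in OIL rats (SD, n = 5 each), a log2 difference of -1.36 ± 0.40 (SE, 95% interval from -2.25 to -0.46, unadjusted p of 0.0066, limma). In linear terms the MIX level was 0.391 of the OIL level.

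Pgr, the progesterone receptor, was 7.23, 7.44, 7.52, 7.21 and 8.46 in MIX rats, against 10.34, 7.34, 9.83, 8.09 and 8.85 in OIL rats. The OIL rats covered 3.0 log2 units, and OIL_par_441 and OIL_par_444 were within the MIX range. Its log2 difference was -1.32 with a 95% interval from -2.47 to -0.17. Tph1, the first enzyme of serotonin synthesis from tryptophan, had the lowest log2 difference of any gene tested, -1.56 ± 0.52 (SE), with 7.11, 7.60, 7.14, 7.33 and 8.66 in MIX rats, against 10.38, 7.66, 10.01, 8.20 and 9.40 in OIL rats. Rspo3, a secreted Wnt co-activator, was 7.71, 7.5, 7.61, 7.98 and 9.16 in MIX rats, against 10.48, 8.16, 9.89, 8.24 and 9.47 in OIL rats. In all 4 genes OIL_par_440, OIL_par_442 and OIL_par_446 were the highest of the OIL group, OIL_par_441 was the lowest, and MIX_par_341 was the highest of the MIX group. Esr1, the estrogen receptor, did not go with them, at a log2 difference of 0.24 ± 0.13 (SE), nor did Gata3 (-0.01), Foxa1 (-0.24) or Tnfsf11 (-0.04). Over the 10 measured genes of this cell type the median was -0.13, with -0.047 among Promega rats and -0.51 among Zymo rats. It was -0.023 without MIX_par_339 and -0.21 without MIX_par_341. Of the 7 tested 2, Areg and Pgr, had an unadjusted p under 0.05.

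A list of 20 genes was picked from the larger set that the article on this series and its supplement name for DEP, with 18 of the 20 measured here and 12 tested. It is a selection and not the whole set. The study chose that set on the DEP and OIL rats of this series, so the OIL rats are shared and the list is not independent evidence of a direction. In MIX rats 13 were lower and 5 higher than in OIL rats, with a median of -0.20, and 3 of the 12 tested had an unadjusted p under 0.05, all lower: Areg, Tph1 and Aadat. Without MIX_par_339 the median was 0.017. Aadat, an aminotransferase of kynurenine, was 9.52, 10.66, 9.73, 10.18 and 11.14 in MIX rats, against 11.90, 10.56, 11.65, 10.68 and 11.43 in OIL rats. The values overlapped, and the log2 difference was -1.0 ± 0.36. Prlr, the prolactin receptor, which was under the variance filter, differed by -0.53 ± 0.19.

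Other genes of this selection stood near 0 in MIX rats or had wide errors. Car8, a carbonic anhydrase related protein, differed by -0.01 ± 0.47 in MIX rats against OIL rats, and Abcg2, the efflux transporter of the milk-secreting cell, by 0.11 ± 0.46. Cldn8, a tight junction claudin, differed by -0.41 ± 0.47, and Plet1, a surface protein known from luminal progenitors of the mouse, by -0.32 ± 0.32. For the same 4 genes the DEP rats differed from the same OIL rats by -2.01 (Car8), -1.59 (Abcg2), -2.54 (Cldn8) and -1.99 (Plet1). Among the remaining genes of the list, Xbp1 differed by -0.28, Cd14 by -0.27, Muc1 by -0.17, P4ha1 by -0.13, Tmc4 by -0.11, Tgfb3 by 0.09, Plekha6 by 0.11, Mpzl3 by 0.15 and Rps16 by 0.16 in MIX rats.

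Lists of immune cells and their products had medians below 0 in MIX rats, with no called member. In RNA from whole glands, fewer cells of a type and less RNA per cell cannot be told apart. The macrophage list (10 genes) was lower in 10 of 10 members with a median of -0.42, and 4 of its 7 tested members had an unadjusted p under 0.05: Cd163 and the complement C1q chains C1qa, C1qb and C1qc. Its mean level was 9.09, 9.34, 8.86, 9.29 and 9.57 in MIX rats, against 9.31, 9.64, 10.06, 9.85 and 9.54 in OIL rats. MIX_par_341 was above 2 of the OIL rats and MIX_par_338 above 1, and the other 3 MIX rats were below all OIL rats. C1qa, one of the most abundant, averaged 11.37 ± 0.15 in MIX rats and 11.76 ± 0.27 in OIL rats, a log2 difference of -0.39 ± 0.15 (SE). The median of the list stayed between -0.56 and -0.30 over all alternatives tried.

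The mast cell list (7 genes) was lower in 7 of 7 members with a median of -0.62, and 2 of 5 tested members had an unadjusted p under 0.05, the tryptases Tpsab1 (-0.77 ± 0.25) and Tpsb2 (-0.53 ± 0.24). Its median was -0.28 among Promega rats and -0.95 among Zymo rats, and -0.35 without MIX_par_339. Cpa3, the mast cell carboxypeptidase, was 7.87, 9.92, 7.52, 10.39 and 10.28 in MIX rats, against 9.16, 10.05, 10.64, 10.21 and 10.67 in OIL rats. MIX_par_337 and MIX_par_339 were low, and the other 3 lay within the OIL range. Its difference of -0.95 had a 95% interval from -2.26 to 0.36.

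The lists of T and NK cells (12 genes) and B cells (8 genes) had the lowest medians of all lists, -0.82 and -0.81, with 12 of 12 and 8 of 8 members lower in MIX rats, but no member reached an unadjusted p under 0.05. The mean level of the T and NK cell list was 8.14, 7.72, 7.39, 9.19 and 9.18 in MIX rats, against 9.27, 7.82, 10.10, 10.28 and 7.97 in OIL rats. Both groups held rats with low and rats with high levels, and 2 MIX rats and 3 OIL rats were above 9. Cd3g, a chain of the T cell receptor complex, differed by -1.04 on the log2 scale, and Cd4 by -0.56. Leaving out OIL_par_444 brought the medians to -0.41 for T and NK cells and -0.30 for B cells, and leaving out OIL_par_441 or OIL_par_446 took them to as low as -1.20 and -1.32. The first principal component of the kit-removed values, which held 44.6% of the variance, ran along these genes, with Cr2, Ccl19 and Ms4a1 among its leading genes. It was lowest in MIX_par_339 (-20.4) and MIX_par_338 (-20.2) and highest in OIL_par_442 (31.7), OIL_par_444 (27.4) and OIL_par_440 (14.97). The groups overlapped along it. OIL_par_441 (-17.2) and OIL_par_446 (-11.8) were low, as was MIX_par_337 (-15.7), and MIX_par_340 (6.4) and MIX_par_341 (4.8) lay between.

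Other lists that hold immune genes went the same way. All 8 genes of MHC class II presentation were lower in MIX rats (median -0.48), with RT1-Ba the single one of 7 tested with an unadjusted p under 0.05, and the median was -0.30 without OIL_par_442. All 6 plasma cell genes were lower (median -0.51, or -0.33 without OIL_par_442), with Derl3 at -0.57 ± 0.22. All 13 chemokines were lower (median -0.35), among them Cxcl12 at -0.32 and Cx3cl1 at -0.36, 2 of 8 tested with an unadjusted p under 0.05. The interferon response list was lower in 13 of 14 genes (median -0.21, or -0.10 without OIL_par_444) and the complement list in 4 of 6 (median -0.38). Lymph node stroma had a median of -0.35 over 6 genes. All 10 genes of eicosanoid synthesis were lower (median -0.27), with Hpgd, which breaks down prostaglandins, at -0.99 (-0.61 without MIX_par_339) and the phospholipase Pla2g2a at -0.94, the 2 of 7 tested with an unadjusted p under 0.05. With the mean of the T, NK and B cell genes as a covariate, 101 genes in place of 215 had an unadjusted p under 0.05. In that fit the medians were -0.35 for macrophages, -0.36 for mast cells, -0.15 for MHC class II, -0.24 for chemokines and -0.04 for the interferon response.

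**Figure D4:**
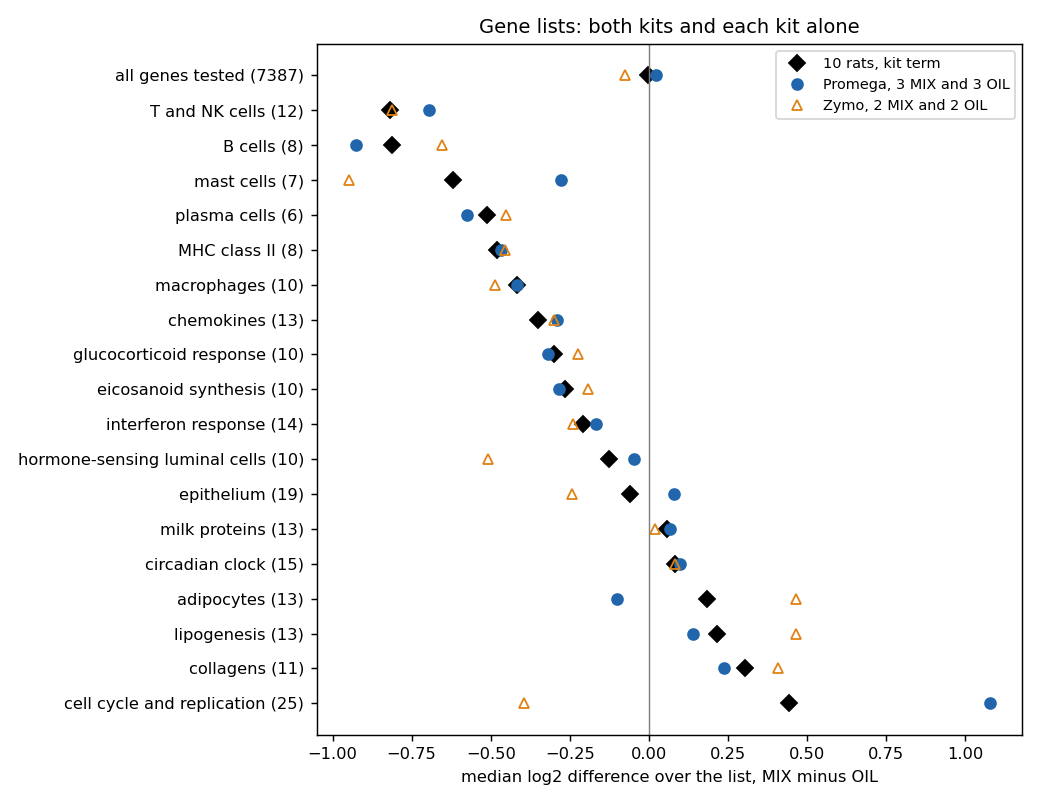
Median log2 difference, MIX minus OIL, over the measured members of 18 gene lists (number of genes in brackets) and over all genes tested, in the 10 rats (diamonds), in Promega rats (circles) and in Zymo rats (triangles). The immune lists lie left of 0 in both kits, and the cell cycle list lies at 1.08 in Promega rats and -0.40 in Zymo rats.

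The cell cycle list (25 genes) had the highest median, 0.44, with 24 of 25 members higher in MIX rats, but the direction was not the same in both kits. Its median was 1.08 among the Promega rats and -0.40 among the Zymo rats. Mki67, the proliferation marker, was 10.12, 10.74, 9.57, 10.75 and 9.53 in MIX rats, against 7.74, 10.49, 8.21, 10.35 and 9.26 in OIL rats. OIL_par_440 and OIL_par_442, both Promega extracts, were low, while OIL_par_441 and OIL_par_444 were close to the highest MIX rats. Its log2 difference was 0.93 with a 95% interval from -0.25 to 2.12. No tested member reached an unadjusted p under 0.05, and the median was 0.16 without OIL_par_440 and 0.77 without OIL_par_444.

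**Figure D5:**
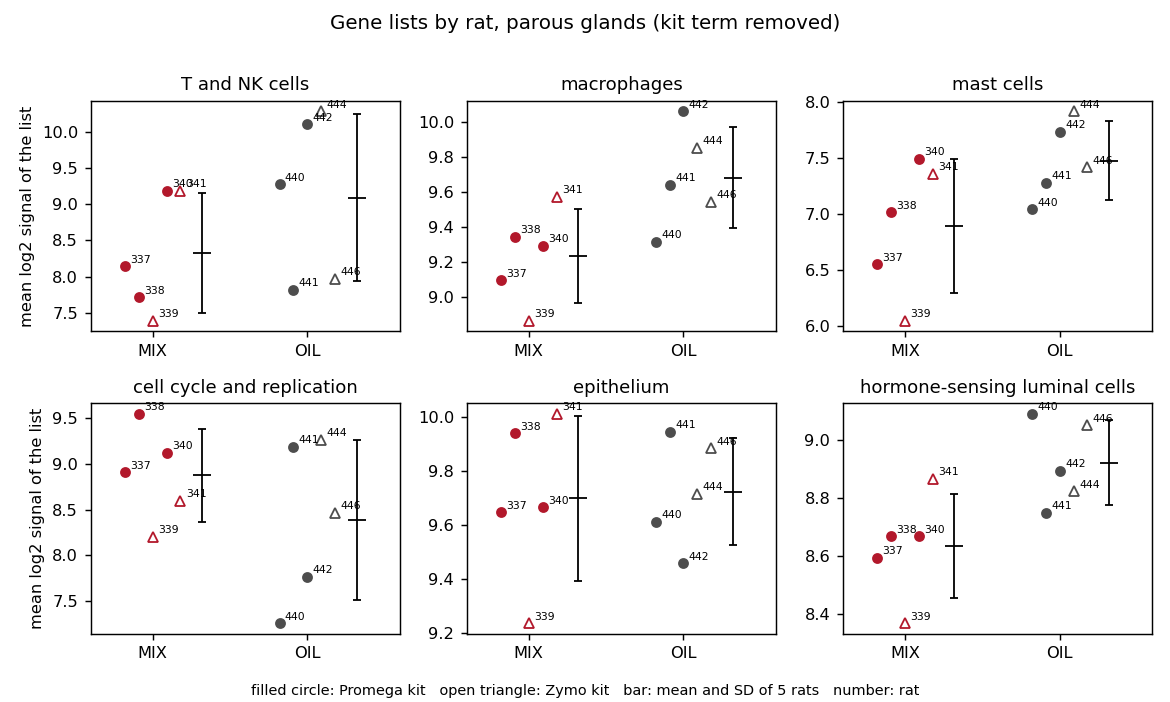
Mean log2 signal of 6 gene lists in each rat, kit term removed, MIX left of OIL, with the number of each rat beside its point; circles are Promega extracts, triangles Zymo extracts, and bars the mean and SD of 5 rats. T and NK cell and cell cycle levels span 2 or more log2 units within the OIL group, while epithelium levels overlap.

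The collagen list was higher in 10 of 11 genes with a median of 0.31, and Col15a1, a basement membrane collagen, was 9.46, 9.08, 9.58, 9.29 and 8.92 in MIX rats, against 8.48, 9.32, 8.47, 8.65 and 8.92 in OIL rats. OIL_par_441 and OIL_par_446 lay within the MIX range. The median of the list was 0.12 without MIX_par_339. The fibroblast list of 11 genes had a median of 0.17, which was 0.066 without MIX_par_339 and 0.32 without OIL_par_441. Lipogenesis was higher in 12 of 13 genes with a median of 0.22, which was 0.12 without MIX_par_338. Its member Dgat2, which catalyses the last step of triglyceride synthesis, did not overlap between groups, with 11.19, 11.35, 11.77, 11.11 and 10.86 in MIX rats, against 10.82, 10.81, 10.80, 10.60 and 10.82 in OIL rats. The difference of Dgat2 was 0.48 ± 0.16 (SE). The adipocyte list, made of marker genes of fat cells, had a median of 0.19 that was -0.05 without MIX_par_339 and -0.10 among Promega rats. Lists of related function lay on the other side of 0, with PPAR targets and fatty acid oxidation at -0.019 (7 of 12 lower) and matrix proteases and inhibitors at -0.088 (10 of 15 lower).

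Milk protein genes had a median of 0.06, with 9 of 13 higher, which was 0.0084 without OIL_par_442 and 0.11 without MIX_par_339. Wap, the whey acidic protein, was 11.53, 12.43, 10.78, 12.26 and 12.62 in MIX rats, against 10.82, 12.47, 9.59, 11.09 and 11.57 in OIL rats, a log2 difference of 0.82 with a 95% interval from -0.31 to 1.94. The values of both groups overlapped over most of their range. The caseins Csn2, Csn1s1 and Csn3 differed by 0.06, -0.02 and 0.01. The epithelium list had a median of -0.06, with 11 of 19 genes lower, and of 0.11 without MIX_par_339. Immediate early genes were lower in 10 of 12 (median -0.25) and the serotonin and kynurenine list in 9 of 12 (median -0.11). Without MIX_par_340 these medians were -0.15 and -0.063. The other 27 lists had medians between -0.21 and 0.13. Of their 174 tested members 6 had an unadjusted p under 0.05, all lower. The share over all genes tested was 2.91%, with 116 genes lower and 99 higher.

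Nulliparous rats of the same age and treatment period allowed the difference of the mixture effect between parities to be tested, with 5 MIX and 5 OIL rats of each parity in 1 fit of 20 rats. The difference passed the threshold in 0 of 7440 genes (0%), with 100 genes at an unadjusted p under 0.05 and a smallest adjusted p of 0.999 (limma). In nulliparous rats alone 0 genes (0%) were called and 81 had an unadjusted p under 0.05. C1qtnf1 differed by 0.07 between nulliparous MIX and OIL rats, Areg by -0.10 ± 0.56, Pgr by 0.10 ± 0.66 and Tph1 by -0.37 ± 0.62 (SE). The differences between parities were -1.26 ± 0.80 for Areg and -1.41 ± 0.93 for Pgr, with unadjusted p-values of 0.132 and 0.145 (limma), so the parities were not shown to differ in these genes. Sema3a, higher in parous MIX rats, had a difference between parities of 0.86 ± 0.28 with an adjusted p of 0.999 (limma). Dbp and Nr1d1 differed by 0.08 and 0.26 in nulliparous rats.

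MIX rats were also set directly against the single chemicals in a fit of the 25 parous rats. Many genes were called against rats given DEP alone, and none against rats given methyl paraben or triclosan alone. The doses in the mixture are not given in the sources used here, so these are differences between groups of rats and not between matched doses. Against DEP rats 1538 of 7490 genes (20.5%) were called, 776 higher and 762 lower in MIX rats (limma), and 954 without the kit term, which matters here because 1 DEP rat was extracted with Promega and 4 with Zymo. DEP rats against OIL rats gave 898 called genes (12%) in the same fit. The largest rises in MIX rats over DEP rats were in the epithelial genes Wap (2.73 on the log2 scale), Cldn8 (2.13), Car8 (2.00), Fabp3 (1.96) and Cited1 (1.88). The largest falls were in the lymphoid genes Ccl19 (-3.41), Cr2 (-3.30), Ms4a1 (-3.09) and Lef1 (-3.02) and in B3gnt5 (-3.02).

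Levels of cell type lists also differed in this contrast, and cell numbers were not measured. The T and NK cell list averaged 8.23 ± 0.95 in MIX rats and 10.25 ± 1.34 in DEP rats, and the epithelium list 9.74 ± 0.43 in MIX rats and 8.70 ± 0.40 in DEP rats (SD, n = 5 each). All 12 T and NK cell genes and all 8 B cell genes were called lower, and 18 of 19 epithelium genes and 15 of the 18 measured genes picked from those the article names for DEP were called higher in MIX rats. The study chose that larger set on the same DEP rats, and the 18 are a part of it. The part of the lymphoid level in the other calls was not tested.

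Against methyl paraben rats 0 of 7490 genes (0%) were called and 501 had an unadjusted p under 0.05, and against triclosan rats 0 (0%) were called and 135 had such a p (limma). The smallest p-values against methyl paraben belonged to Per1 (-0.78 ± 0.16, SE), Tsc22d3 (-0.79 ± 0.17) and Zbtb16 (-1.21 ± 0.28), each lower in MIX rats, with adjusted p-values between 0.582 and 0.595. Against triclosan they belonged to Zbtb16 (-1.13 ± 0.28), Per1 (-0.64 ± 0.16) and Zmiz1 (-0.37 ± 0.10), with an adjusted p of 1.00 each. Per1 was called lower in MIX rats than in methyl paraben rats without MIX_par_337 (adjusted p of 0.25) and lower than in triclosan rats without TCS_par_239 (adjusted p of 0.165). Per1, Tsc22d3 and Zbtb16, of the glucocorticoid response list, also had lower values in MIX rats than in OIL rats, and the MIX rats are shared by the 3 comparisons. Cldn8, of the selection from the genes named for DEP, differed by 0.0049 ± 0.48 from methyl paraben rats and by -0.0029 ± 0.48 from triclosan rats.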

How the data were processed

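RNA of caudal mammary glands was hybridised to Affymetrix GeneChip Rat Gene 2.0 ST arrays, 1 per rat. The deposited values were log2 signals that the authors made with RMA (background correction, quantile normalization and median-polish summary) in Affymetrix Expression Console. A ComBat step for the RNA kit (R 3.0.2) is described in the article; because kit differences remained in the values, the kit entered each fit as a term. Probesets with 1 gene symbol were kept, the one of highest mean per gene, and genes had to exceed the 30th percentile of all values (5.58) in the mean of at least 1 group and then lie in the upper 50% by interquartile range. That range was taken before the kit term was removed, so it also holds the difference between kits. Groups were compared with lmFit and eBayes of limma 3.58.1 in R 4.3.3, checked on simulated data, with Benjamini-Hochberg adjustment. A call needed an adjusted p under 0.25 and 1.5-fold, as in the study's methods. Standard errors and p-values of genes outside the filters came from the same fit over all genes. Each replicate was a separate rat, and no pair of arrays was a duplicate. Since no gene was called, the rule for naming genes took the 10 lowest p-values in each direction, up to 3 members of each list by p, the 2 most abundant of each cell type list, 20 genes picked from those the article and its supplement name for DEP and, in other comparisons, the 5 largest called changes in each direction or the 3 lowest p-values. 1 gene that the rule names is not reported here. The other clock genes, Tnfsf11, Nr3c1, the caseins and LOC691897 were named after their values were seen. The members and the 51 gene lists were chosen with earlier results of these data known. Alternatives covered the kit, the samples fitted, filters, probesets, normalization, thresholds, variance estimate, array weights, tissue scores and leaving out each rat. No count or depth applies to arrays, and the 5 rats per group limit the precision.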

Additional observations from a re-analysis of the deposited data

Results flagged for a closer look

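In groups of 5 rats, a rat was singled out where its gap to the nearest rat of its group exceeded 0.71 of the group's range. This held in 20 of the 502 groups checked, 17 of 400 for genes and 3 of 102 for lists, and chance alone gives about 1 in 20. Values are log2 signals with the kit term removed.

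Among MIX rats, MIX_par_341 stood apart in 2 genes: Pgr was 8.464 there, with the nearest MIX rat at 7.52, and Rspo3 was 9.156, with the nearest at 7.979. MIX_par_339 stood apart in Creld2 (8.524, nearest 9.261), Mmp7 (5.122, nearest 5.957), Fdcsp (4.616, nearest 4.844) and Pmp22 (12.3, nearest 12.02). MIX_par_338 stood apart in Ndufa4 (12.64, nearest 12.29) and in the mean of the TGF-beta family list (8.594, nearest 8.743) and of the hypoxia and glycolysis list (9.213, nearest 9.139), and MIX_par_337 in P4ha1 (10.81, nearest 10.56).

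Among OIL rats, OIL_par_441 stood apart in Esr1 (8.476, nearest 8.146), Hpgd (8.474, nearest 9.174) and Col5a2 (8.903, nearest 8.397). OIL_par_442 was high in C1qc (10.18, nearest 9.853) and Gstm1 (7.938, nearest 7.463). OIL_par_440 was low in Idi1 (7.13, nearest 8.082) and high in the mean of the immediate early genes list (9.463, nearest 9.024). OIL_par_444 was low in Dgat2 (10.6, nearest 10.8), and OIL_par_446 was low in Cldn5 (8.873, nearest 9.304) and high in Slc6a4 (8.108, nearest 7.745).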

How the results depend on the processing

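The count of genes called between MIX and OIL rats was 0 in every alternative run except among Zymo rats alone (2 MIX and 2 OIL), where 1 gene was called, LOC691897, at a log2 difference of -2.60 there and -1.27 in all 10 rats. The number of genes at an unadjusted p under 0.05 ran between 8, without the kit term, and 625, without OIL_par_441. The 45 single genes followed were named genes with an unadjusted p under 0.05 in the main fit of these same rats (limma). Each kept its sign in all 27 alternatives, which that choice made likely, so it is no separate evidence of a difference. None was called. Of 51 lists, 28 kept the sign of their median in every alternative. Against DEP rats the count of called genes was 954 without the kit term and between 1098 and 1992 when a rat was left out. Against methyl paraben and against triclosan rats, leaving out a rat gave between 0 and 1 called genes, in both cases Per1, and the difference between parities gave 0 throughout. The cause of these shifts was not tested. No paired analysis was possible because the animal numbers are unique to each group. The number of rats limits what could be seen, most of all in genes that vary widely between rats of a group, and the 2 Zymo rats per group carry little weight alone.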
